A study of Mus musculus with 36 samples.

Results

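Mouse spleens were divided by their level of Zfp949, a gene of the C2H2 zinc finger family on chromosome 9. The 36 spleens were split on 1 measured value, the log2(intensity + 16) of the brighter Zfp949 probe set, with spleens at 8.6 or above called high and the others low. This gave 24 high and 12 low spleens of 36. Because the classes were chosen on this value, the difference in Zfp949 between them is a description and was not tested.

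The arrays came from F2 mice, the second generation of a cross, at 4 months, 18 of them labelled arthritic and 18 non-arthritic. The series title names arthritic mice deficient for the interleukin 1 receptor antagonist, while the sample labels give no parental strain, Il1rn genotype, sex or arthritis score for any mouse. Total RNA of each whole spleen was hybridised to 1 Affymetrix mouse array, so in each result fewer cells of a type and less RNA per cell cannot be told apart. The high class held 12 arthritic and 12 non-arthritic mice and the low class 6 and 6, so arthritic mice made up 50% of each class (two-sided Fisher's exact test, p = 1).

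C2H2 zinc finger proteins bind DNA through tandem zinc-coordinating fingers, and many of them carry a KRAB domain that recruits corepressors to chromatin. Mrap2, which lies near Zfp949 on chromosome 9, encodes a membrane protein that binds melanocortin receptors and alters their signalling, and is best known for its part in the control of body weight. In an F2 cross, neighbouring genes on a chromosome tend to be inherited together, so alleles at a locus and those of its neighbours are shared by the same mice.

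The starts of Zfp949 and Mrap2 are shown. Zfp949 chose the classes, and Mrap2 was the only other gene with a tested probe set whose high and low spleens did not overlap. Each sequence runs from 250 bases before to 50 bases after the gene's start in RefSeq, on build GRCm38.p6 and the plus strand, and capitals mark CpG dinucleotides. Zfp949 lies at chr9:88547770-88548069 and Mrap2 at chr9:87144056-87144355.
Zfp949: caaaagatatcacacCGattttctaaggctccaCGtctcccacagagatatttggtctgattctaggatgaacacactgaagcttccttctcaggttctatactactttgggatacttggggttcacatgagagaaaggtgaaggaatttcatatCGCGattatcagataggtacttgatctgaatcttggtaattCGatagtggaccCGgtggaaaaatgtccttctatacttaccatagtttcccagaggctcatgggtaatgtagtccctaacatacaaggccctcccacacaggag
Mrap2: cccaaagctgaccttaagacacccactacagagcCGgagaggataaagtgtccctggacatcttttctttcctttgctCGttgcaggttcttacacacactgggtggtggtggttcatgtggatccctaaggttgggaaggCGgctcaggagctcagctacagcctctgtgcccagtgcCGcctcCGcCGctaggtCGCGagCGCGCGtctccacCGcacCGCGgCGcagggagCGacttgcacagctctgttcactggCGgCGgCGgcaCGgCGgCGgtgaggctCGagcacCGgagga
The Zfp949 window held 6 CpG and 43.3% G or C, and the Mrap2 window 24 CpG and 62.7% G or C, against a median of 7 CpG over 32851 promoters of the same length. As many or fewer CpG were found in 47.9% of all promoters for Zfp949 and in 81.6% for Mrap2. Cores of known promoter boxes were searched on both strands. The GC box core GGGCGG occurred in neither window and in 35.7% of all promoters. The CCAAT box core was in neither window and in 37.4% of all promoters. The TATA box core TATAAA was in neither window and in 13.6% of all promoters. The array data do not read these bases, and no sequence of an individual mouse was used here.

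The Zfp949 probe set that chose the classes ran from 9.39 to 10.92 with a median of 9.86 in the high spleens, and from 7.10 to 8.16 with a median of 7.54 in the low spleens. On the linear scale the medians were 916 and 170. The nearest spleens on either side of the threshold were arthritic 7 at 8.16 and non-arthritic 8 at 9.39, a gap of 1.23, while the next widest gap between ranked spleens was 0.40. The second probe set of the gene ran from 8.64 to 10.24 with a median of 9.47 in the high class, and from 7.43 to 8.33 with a median of 7.89 in the low class. The second probe set thus separated the same 24 and 12 spleens without overlap, which for the first was fixed by the rule. Group means were 10.01 ± 0.42 and 7.56 ± 0.27 (SD, n = 24 and 12) for the first probe set, and 9.48 ± 0.47 and 7.89 ± 0.29 for the second.

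**Figure D1:**
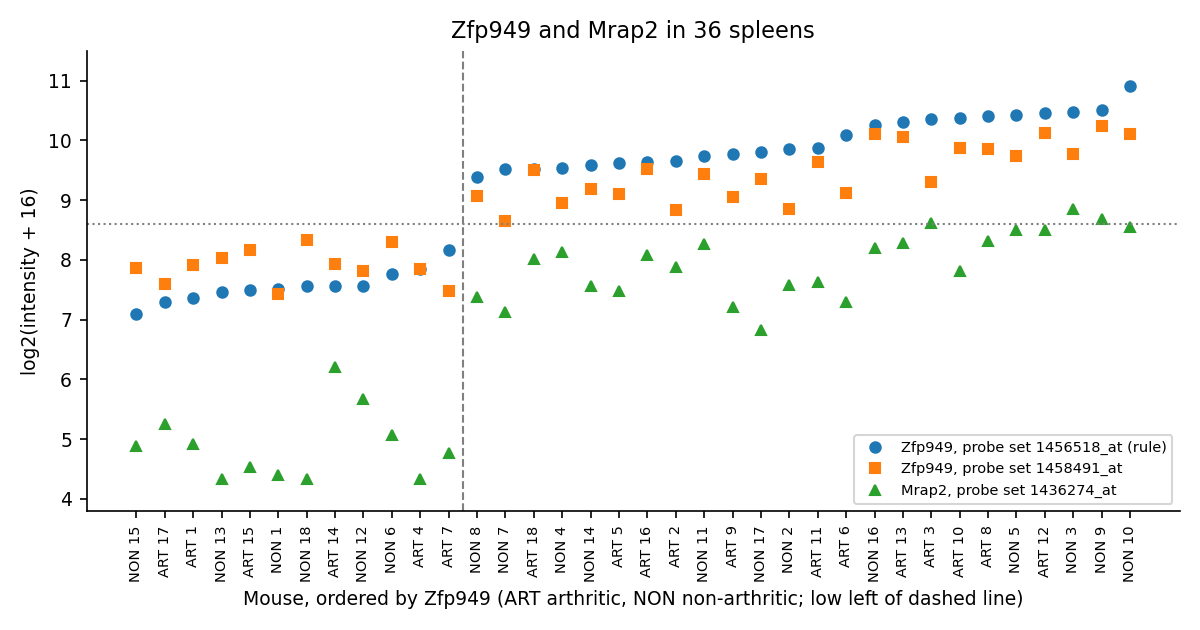
Levels of both Zfp949 probe sets and of Mrap2 as log2(intensity + 16) in each of the 36 mice, ordered by the probe set that chose the classes. The dotted line is the threshold of 8.6 and the dashed line parts the 12 low from the 24 high spleens. Mrap2 reached at most 6.21 in the low spleens and at least 6.83 in the high ones.

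Mrap2 was measured by 1 probe set. In the high spleens it ran from 6.83 to 8.84 with a median of 8.05, and in the low spleens from 4.33 to 6.21 with a median of 4.83. Every low spleen lay below every high one, and the low levels were close to the floor of 4 that the added 16 sets on the log2 scale. Median intensities were 249 and 12.4. The probe set passed the filter on low values, a mean log2 of 6.49 over all spleens, only through the high class. Mrap2 was higher in the high class by 3.06 (SE 0.20) on the log2 scale, with an adjusted p of 7.88e-14 (limma with the arthritic label as a term, Benjamini-Hochberg over all tested probe sets). Because the low levels are so dim, the size depends on the number added before the log: it was 4.19 with 1 added and 1.91 with 64 added, and no fold is given. It was the only probe set of 27020, Zfp949's own left out, whose high and low spleens did not overlap, which is 0.0037% of those tested. Mrap2 was proposed with earlier results of these data known, so this is no independent evidence for the pair.

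The difference in Mrap2 was present under both labels. It was 2.92 in arthritic mice alone and 3.19 in non-arthritic mice alone, with adjusted p of 4.04e-06 and 4.85e-06 (limma). The difference between these values was -0.27 (SE 0.40, adjusted p 0.998). Within the high class, Mrap2 had a mean of 7.93 ± 0.46 (SD, n = 12) under the arthritic label and 7.97 ± 0.65 under the other, and within the low class 5.0 ± 0.67 (n = 6) and 4.78 ± 0.54. Of the 3 clusters of arrays set apart by their added hybridisation control RNAs, the first and second gave 3.18 and 2.97, with adjusted p of 1.19e-04 and 1.57e-04 (limma). The third held 6 high spleens and 1 low spleen at 5.68, and its difference of 2.82 stands on that 1 mouse and is given with no test. The call was kept in each of the 36 fits that left out 1 mouse, where the difference ran from 3.0 to 3.18. As Mrap2 was proposed with earlier results known and passed the filter only through the high class, these fits are no independent evidence for it.

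The low spleens with the most Mrap2 were arthritic 14 at 6.21 and non-arthritic 12 at 5.68, both of which stayed below the high class. Within a class the levels can be set beside those of the Zfp949 probe set that chose the classes, as a description with no test. Among the 24 high spleens Pearson's r with it was 0.670 for Mrap2 (Spearman's rho 0.703) and 0.525 for Snap91 (rho 0.503), and 0.617 and 0.468 without the 2 spleens farthest from the median of Zfp949. For Cep162 and Nt5e it was 0.200 and 0.343. Among the 12 low spleens, where Mrap2 lay near the floor, r was -0.11 for Mrap2 and -0.57 for Snap91. For the second Zfp949 probe set r was 0.787 among the high and -0.12 among the low spleens. Among the high spleens the third control cluster had the highest mean of each gene. Zfp949 was 10.30 there against 10.02 and 9.81, Mrap2 8.32 against 7.86 and 7.80, and Snap91 8.04 against 7.49 and 7.94. Both levels of a pair were read on the same array, and the parts of RNA quality and of the control clusters in these values were not tested.

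Few of the tested probe sets differed between the classes. Of 27020 tested probe sets, 99 passed an adjusted p of 0.05, which is 0.366%. Of these, 89 were higher and 10 lower in the high class, and 63 could be paired with 1 gene. When each gene was represented by its brightest probe set, 19 of 12426 genes were higher (0.153%) and 1 was lower (0.00805%) in the high class. At an unadjusted p under 0.05 the share was 12.1% of probe sets. All 99 called probe sets had the same sign under both labels, although the fits within a label alone called 1 and 5 probe sets. They were chosen on their difference over these same arrays, so the shared sign is no independent evidence. In the test of whether the difference depended on the label, 0 of 27020 probe sets passed (0%), with 646 at an unadjusted p under 0.05 and a lowest adjusted p of 0.998 (limma).

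**Figure D2:**
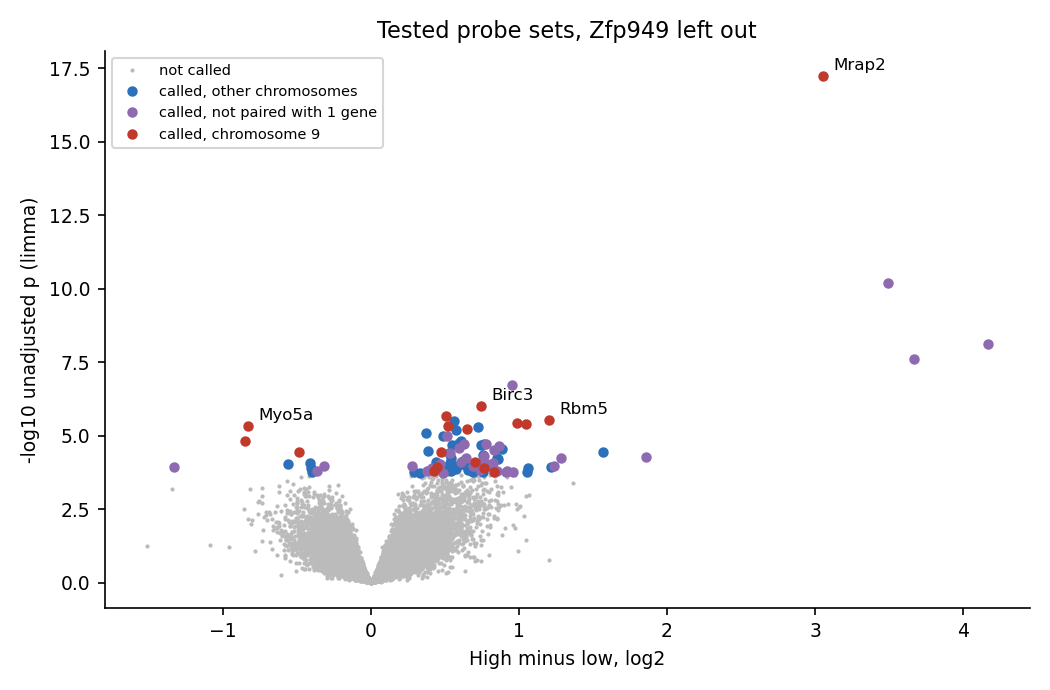
Difference between high and low spleens on the log2 scale against the -log10 of the unadjusted limma p, for 27020 probe sets with those of Zfp949 left out. Colours part the 99 called probe sets into those of chromosome 9, of other chromosomes and those without 1 named gene. Mrap2 stands apart at a difference of 3.06, with 3 unnamed probe sets beyond it to the right.

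Of 3 measures of RNA and signal quality, 1 differed between the classes. The log2 ratio of the 3 prime to the 5 prime actin control probe sets, which rises as RNA is shortened, was 0.446 ± 0.187 (SD, n = 24) in the high and 0.685 ± 0.343 (n = 12) in the low class (permutation test, p = 0.00887, 0.0266 after adjustment over 3 measures). The highest ratios were those of the low spleens arthritic 14 at 1.45 and non-arthritic 18 at 1.11. The same ratio for Gapdh was -0.18 and -0.17 in the high and low classes (permutation p = 0.878), and the median intensity per array did not pass either (p = 0.691). With the actin ratio as a covariate, chosen after seeing the data, 52 probe sets were called, of which 14 were among the 99. Of those 14, 8 lay on chromosome 9, namely Mrap2, both called probe sets of Armc8, and 1 each of Snap91, Cep162, Birc3, Myo5a and Rbm5. The count of 99 called probe sets also hung on single mice. It was 25 without non-arthritic 18 or without non-arthritic 6, 33 without arthritic 14, 171 without arthritic 1 and 252 without non-arthritic 13. It lay between 36 and 62 without any one of arthritic 2, 10, 11, 12, 13, 15, 17 and 18 and non-arthritic 2, 3, 5, 7, 8, 9, 10, 11 and 15.

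The share of genes called was highest near Zfp949. Of the 60 tested genes nearest to it in the order of the RefSeq gene table, 30 on either side, 4 were higher in the high class (6.67%) and none was lower, against 0.153% of all genes higher. Of 647 further genes of chromosome 9, 2 were called (0.309%), and of 11669 genes on other chromosomes 14 were, 13 higher and 1 lower (0.120%). Mrap2, 1 of the 4, was proposed with earlier results of these data known and passed the filter only through the high class. Snap91, Cep162 and Nt5e had adjusted p of 0.0453, 0.0486 and 0.0267 (limma). In 20 of the 36 fits that left out 1 mouse, only 1 or 2 neighbours were called. At an unadjusted p under 0.05, in either direction, the shares were 31.7%, 12.1% and 9.15%. The neighbours in that share held lower genes, such as Mthfs at -0.52, as well as higher ones, such as Plod2 at 0.40. The median difference was -0.03 for the 60 neighbours and -0.0089 for all genes, and 38.3% and 47.1% of the differences were positive. Over probe sets, 17 of 1236 on chromosome 9 were called (1.38%), against 46 of 21308 on the other chromosomes (0.216%), and the chromosome with the next highest share, 11, had 0.426%.

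**Figure D3:**
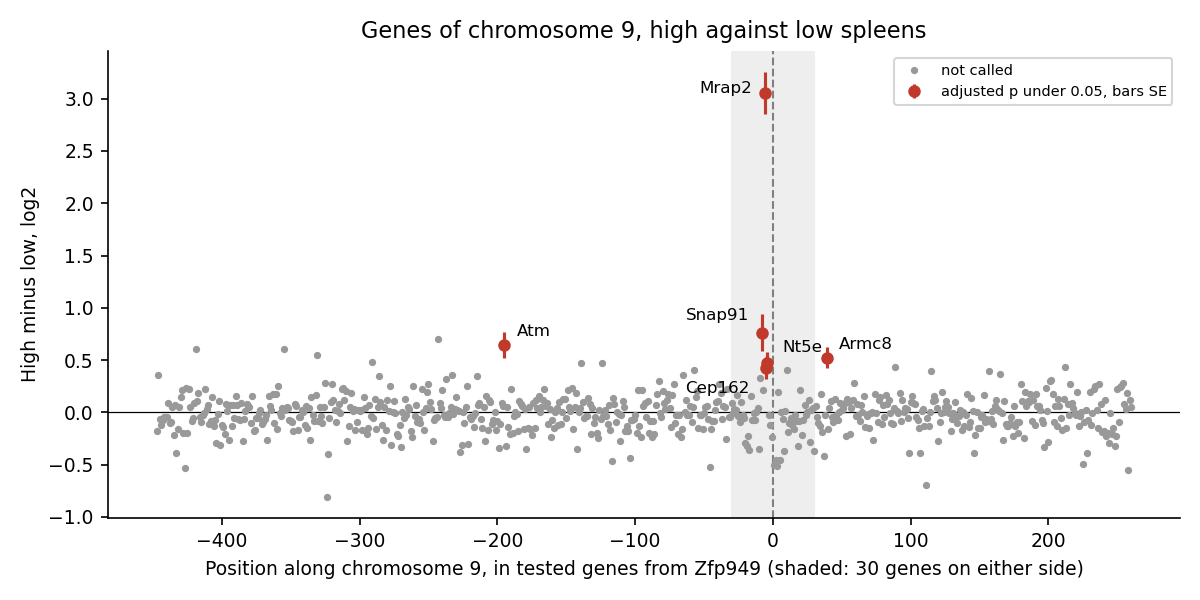
Difference between high and low spleens on the log2 scale for each tested gene of chromosome 9, placed by the number of tested genes from Zfp949, which is left out. Called genes are red with SE bars and the shaded band holds the 30 tested genes on either side. The 4 called neighbours, Snap91, Mrap2, Cep162 and Nt5e, all lie on the same side within 8 tested genes.

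The 4 called neighbours lay 4 to 8 tested genes from Zfp949, all on one side. Nt5e encodes CD73, the surface enzyme that turns AMP into adenosine, and its brightest probe set ran from 7.76 to 9.0 with a median of 8.34 in the high and from 7.60 to 8.24 with a median of 7.89 in the low class. Of the high spleens, 15 of 24 lay above every low spleen. The difference was 0.47 (SE 0.10, adjusted p 0.0267, limma), and it was not called with the actin ratio as a covariate (0.46, adjusted p 0.0637). Of its 2 other probe sets, 1 had the same sign at 0.52 and was not called (adjusted p 0.317, limma). The remaining one had the opposite sign at -0.78. It was too dim for the filter, with means of 5.51 and 6.29, and was not tested.

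Cep162, a centriole protein needed to build the base of cilia, ran from 7.88 to 8.91 with a median of 8.53 in the high and from 7.43 to 8.61 with a median of 8.07 in the low class. The classes overlapped, and 9 high spleens lay above every low one. The difference was 0.43 (SE 0.10, adjusted p 0.0486, limma), a call kept in 8 of 36 fits that left out 1 mouse. Of its other probe sets 1 of 2 had the same sign. Snap91, a clathrin assembly protein known from nerve endings, ran from 6.52 to 8.86 with a median of 7.83 in the high and from 6.09 to 7.83 with a median of 7.07 in the low class. Here 11 high spleens lay above every low one. The difference was 0.76 (SE 0.18, adjusted p 0.0453, limma), and the call was kept in 15 of the 36 fits. The second Snap91 probe set had the opposite sign at a level near the floor (4.75 and 4.87).

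The genes between and around these were not called. Cyb5r4, an oxidoreductase, lies between Snap91 and Mrap2 and had a difference of 0.21 (adjusted p 0.253). Snx14, Syncrip and Snhg5, the tested genes nearest to Zfp949 on that side, had -0.02, -0.12 and -0.24 (adjusted p 0.942, 0.467 and 0.266). On the other side, 9430037G07Rik, 9330159M07Rik and Mthfs, an enzyme of folate metabolism, had -0.50, -0.45 and -0.52, with adjusted p of 0.413, 0.345 and 0.105 (limma). The tested genes closest to Zfp949 thus held none that passed, and the called ones began at the fourth gene away.

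**Figure D4:**
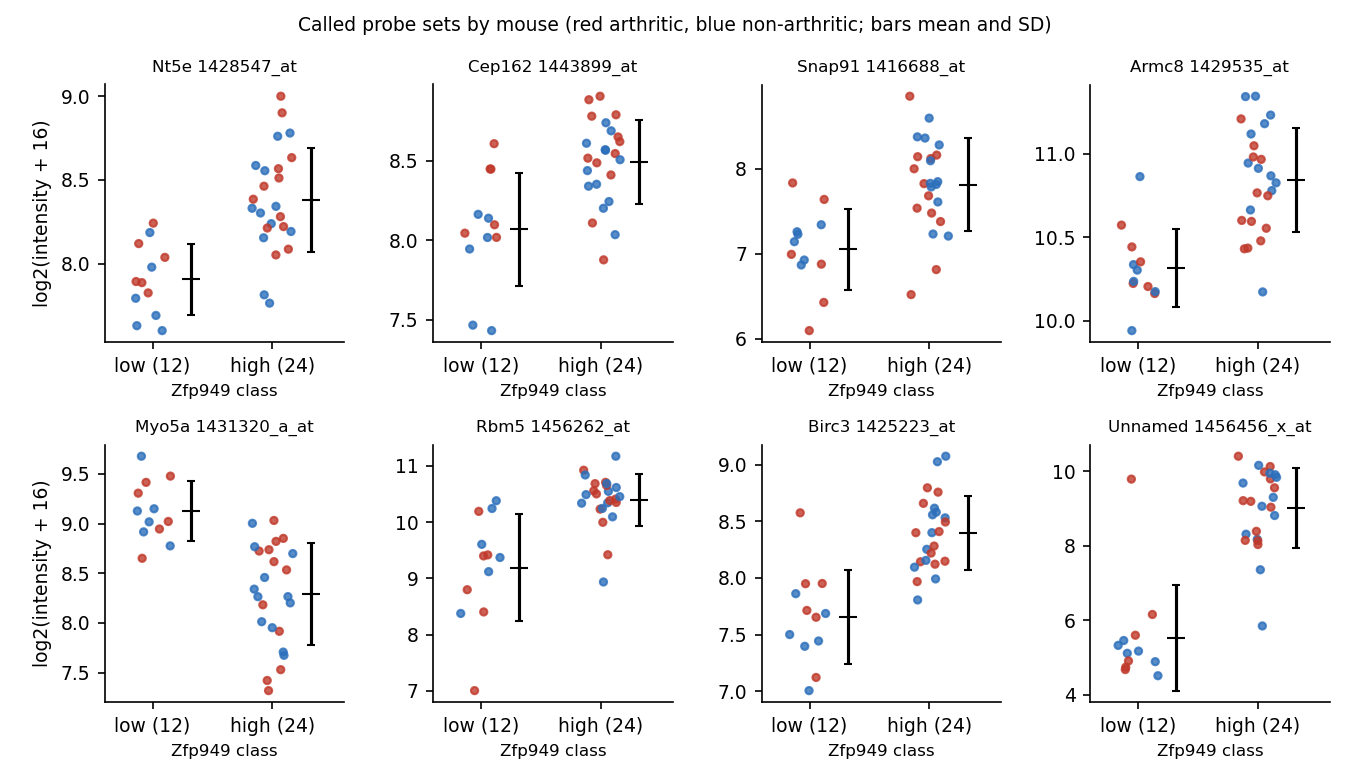
Levels as log2(intensity + 16) of 8 called probe sets in each mouse, low class on the left and high class on the right of each panel, with the mean and SD as bars. Arthritic mice are red and non-arthritic mice blue. The classes overlapped in each of these panels, and arthritic 17 is the single low spleen at 9.79 in the panel of the unnamed probe set.

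Further called probe sets of chromosome 9, named after their values were seen, lay outside the neighbours. Armc8, a part of the CTLH ubiquitin ligase, was higher by 0.99 (SE 0.18, adjusted p 0.00838) for one probe set and by 0.52 (SE 0.10, adjusted p 0.00862) for its brightest one. The latter ran from 10.17 to 11.34 with a median of 10.85 in the high and from 9.94 to 10.86 with a median of 10.27 in the low class. Of its 5 probe sets, 2 were called and 1 had the opposite sign. Myo5a, the motor protein that carries pigment granules along actin, was lower in the high class for both called probe sets, by -0.83 (SE 0.16, adjusted p 0.00862) and -0.85 (SE 0.17, adjusted p 0.0180). The first of these ran from 7.32 to 9.03 with a median of 8.30 in the high and from 8.65 to 9.68 with a median of 9.07 in the low class, and 16 high spleens lay below every low one. The third Myo5a probe set had the same sign.

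Rbm5, an RNA-binding regulator of splicing, was higher by 1.21 (SE 0.22, adjusted p 0.00784) and 1.04 (SE 0.19, adjusted p 0.00838) for 2 of its 5 probe sets. Its low class was wide, from 7.0 to 10.38 with a median of 9.38 for the first of these, against 8.93 to 11.17 with a median of 10.47 in the high class. The brightest Rbm5 probe set had means of 12.71 and 12.61 and was not called. Birc3, a ubiquitin ligase that restrains cell death, was higher by 0.74 (SE 0.13, adjusted p 0.00329) for 1 of 2 probe sets, and the brighter one was not called. Atm, the kinase that responds to DNA breaks, was higher by 0.65 (SE 0.12, adjusted p 0.00954) for the brighter of its 2 probe sets. The other Atm probe set had 0.01 and was not called (adjusted p 0.963, limma). With the actin ratio as a covariate the brighter one had 0.54 and missed the threshold (adjusted p 0.0637, limma).

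The remaining called probe sets of chromosome 9 had differences of 0.51 for Scamp2, a protein of secretory vesicles, 0.70 for the stress protein Sesn3, 0.45 for the membrane-scission factor Pdcd6ip and 0.83 for the chromatin remodeller Smarca4. Ubash3b, which dampens T cell receptor signalling, was lower in the high class by -0.48. The brightest probe sets of these 5 genes were not called, at 0.04 for Scamp2, 0.09 for Sesn3, -0.13 for Pdcd6ip, -0.02 for Smarca4 and -0.16 for Ubash3b. With the actin ratio as a covariate the called probe sets had 0.34, 0.59, 0.35, 0.42 and -0.36 in that order, and none passed (adjusted p 0.0509 to 0.210, limma).

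Outside the neighbours, 12 genes had the largest positive differences among those called by their brightest probe set, Atm and Armc8 among them. Zfp626, another zinc finger gene, had a median of 6.93 in the high and 5.98 in the low class and a difference of 0.85 (SE 0.19, adjusted p 0.0354). Its low-class mean of 6.03 was below the filter on low values, which the probe set passed only through the high class. Prdm2, a histone methyltransferase of the PR domain family, ran from 9.81 to 10.73 in the high and from 8.59 to 10.21 in the low class, a difference of 0.56 (SE 0.10, adjusted p 0.00794). It lay above every low spleen in 15 of 24 high spleens.

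Crim1, Mbd4 and Ccr6, which are a membrane protein that binds BMPs, a DNA repair glycosylase and the receptor for the chemokine Ccl20, had differences of 0.75, 0.62 and 0.60. Slc25a30, a mitochondrial carrier, had 0.53, Stat3, the transcription factor downstream of interleukin 6, 0.44, and 5830408C22Rik, Ankhd1 and Kctd18 0.53, 0.52 and 0.49. For these 8 the adjusted p ran from 0.0267 to 0.0486. Rffl, a ubiquitin ligase, was the single lower gene, by -0.41 (SE 0.09, adjusted p 0.0415). With the actin ratio as a covariate, each of these genes kept its sign and none passed. The differences were then 0.56 for Zfp626, 0.41 for Prdm2, 0.56 for Crim1, 0.52 for Mbd4, 0.46 for Ccr6 and 0.33 for Slc25a30. They were 0.28 for Stat3, 0.45 for 5830408C22Rik, 0.39 for Ankhd1, 0.45 for Kctd18 and -0.31 for Rffl (adjusted p 0.0626 to 0.162 over the 11, limma). Other probe sets of the same genes often disagreed. All those of Zfp626, Crim1, Mbd4 and Rffl had the opposite sign, as did 2 of 3 of Stat3 and 1 of 2 of Prdm2, whose remaining one differed by less than 0.01. The other Kctd18 probe set had 0.05, and none of these other probe sets was called.

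Large differences were also found for 3 unnamed probe sets. The first ran from 5.85 to 10.41 with a median of 9.21 in the high and from 4.51 to 9.79 with a median of 5.14 in the low class, a difference of 3.49 (SE 0.39, adjusted p 4.31e-07). The second and the third differed by 4.17 (SE 0.57, adjusted p 4.27e-05) and 3.67 (SE 0.53, adjusted p 1.10e-04, limma). The low-class means of the first and second, 5.53 and 6.14, were below the filter, which both passed only through the high class, and their low median intensities were 19.3 and 43.2, so these sizes also depend on the 16 added. The classes overlapped through 1 low spleen, arthritic 17 with 9.79, 12.27 and 12.38, and through 1 high spleen, non-arthritic 17 with 5.85, 6.82 and 7.0. Their Zfp949 and Mrap2 levels were those of their own class, with Mrap2 at 5.26 in arthritic 17 and 6.83 in non-arthritic 17. The suffix of their identifiers (x_at) marks probe sets whose probes may match more than 1 transcript, and their gene and position are unnamed here.

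Of all tested genes 0.161% were called, so a short list with no called gene is near that background and is no result about the list. Of 16 melanocortin system genes, which signal through receptors that bind peptides cut from Pomc, 9 were tested and Mrap2 was the only one called. The receptors Mc3r and Mc5r had differences of -0.05 and 0.04 and the precursor Pomc -0.17 (adjusted p 0.933, 0.956 and 0.577). Of 27 tested corepressors and partners of KRAB zinc fingers 0 passed, with 7 of 27 differences positive and a median of -0.06, against 47.1% positive and a median of -0.0089 over all genes. Of 268 tested genes named Zfp, 1 was called, Zfp626, with 104 differences positive and a median of -0.03.

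No lymphocyte marker passed the test by its brightest probe set. All 14 tested B cell markers, all 14 T cell markers and all 13 markers of natural killer and cytotoxic cells had positive differences, with medians of 0.12, 0.19 and 0.22. So did 10 of 12 plasma cell, 10 of 12 red pulp macrophage, 10 of 12 class II and 13 of 16 stroma and endothelium genes. Members of a list are not independent of each other, and these signs were not tested. The members with the lowest p missed the threshold, Cd8a at 0.42 (adjusted p 0.0809) and Ccl5, a chemokine of cytotoxic cells, at 0.39 (adjusted p 0.0557, limma). With the actin ratio as a covariate, a dimmer Cd8a probe set was called at 0.51 (adjusted p 0.0348, limma), against 0.32 (adjusted p 0.220) without it. Ccr7, of the dendritic cell list, was then called at 0.48 (adjusted p 0.0459, limma), against 0.26 (adjusted p 0.380) without the covariate. All 9 megakaryocyte and platelet markers were negative with a median of -0.28, as were 14 of 16 erythroid markers with a median of -0.10 and 21 of 22 cell cycle genes with a median of -0.13, and none was called. The mean level of the B cell markers ran from 11.86 to 12.67 in the high and from 11.68 to 12.51 in the low class, and that of the megakaryocyte markers from 10.10 to 12.26 and from 10.71 to 12.37, so these ranges overlapped. The part of cell makeup in the called genes was not tested. Pancreas acinar markers, which mark tissue from beside the spleen, had a mean level from 6.90 to 13.35 in the high and from 7.07 to 11.91 in the low class, and 0 of 6 tested passed. The other 11 cell type and pathway lists, from plasma cells to class II antigen presentation, held no gene called by its brightest probe set. Their medians ran from -0.13 for neutrophils to 0.17 for monocytes. A dimmer probe set of Birc3, in the list of TNF and NF-kappaB targets, was called, as given above.

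**Figure D5:**
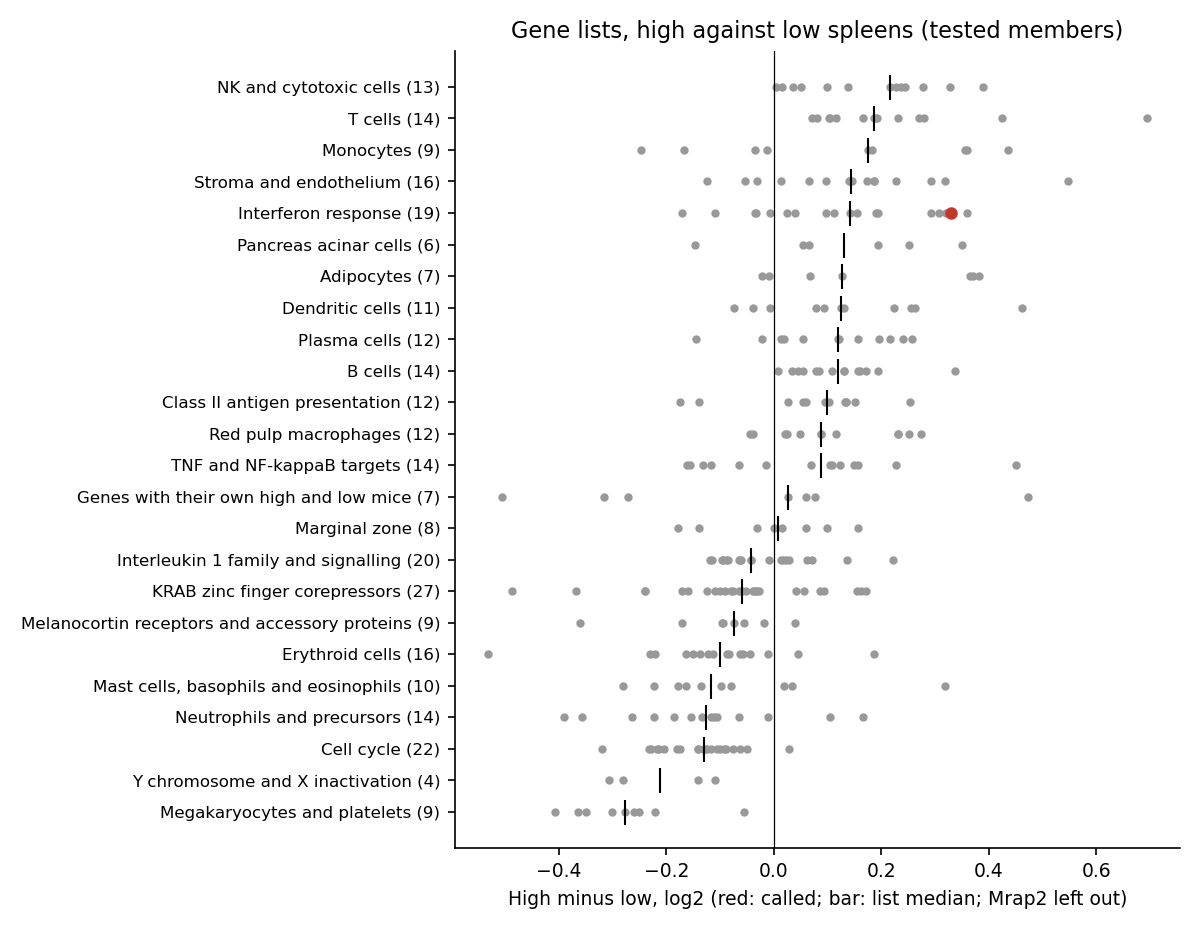
Difference between high and low spleens on the log2 scale for each tested member of 24 gene lists, with the list's median as a bar, the number of tested members in brackets and Mrap2 left out. Lists are ordered by median, from -0.28 for megakaryocytes to 0.22 for natural killer and cytotoxic cells, and 1 member shown, Gbp2, passed the test.

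In the interferon list 1 of 19 tested genes was called, Gbp2, an interferon-induced GTPase, at 0.33 (SE 0.08, adjusted p 0.0493, limma), against 0.161% of all genes. The Gbp2 call was kept in 7 of the 36 fits that left out 1 mouse. No gene of the interleukin 1 list passed among 20 tested, and Il1rn, the receptor antagonist of the series title, had means of 6.47 ± 0.48 (SD, n = 24) and 6.57 ± 0.81 (n = 12). Other genes of this series that fall into high and low mice of their own did not follow Zfp949: H2-Ea, H2-Eb1 and Mndal differed by 0.03, 0.06 and -0.27, and Adamdec1, Gbp2b, Oas1b and Exosc1 by -0.51, 0.08, -0.32 and 0.47, with adjusted p from 0.662 to 0.991 (limma). Of the sex-linked genes, Eif2s3y, Uty and Kdm5d of the Y chromosome differed by -0.28, -0.31 and -0.14 and Xist by -0.11, and none was called. Eif2s3y was at least 10.14 in the high and 10.48 in the low class, and Xist at most 8.15 and 8.08. The Y chromosome gene Eif2s3y thus lay above Xist in every spleen of both classes.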

How the data were processed

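The authors deposited 1 linear intensity per probe set and array. The submitters' processing notes name MAS5, in a release not given in the sources used here. Median intensity per array ran from 111 to 183. Each array is 1 spleen, and beyond the sample titles and an age of 4 months nothing in the labels describes the single animals. The total number of mice in the design text does not match its groups, so the 18 and 18 arrays of the labels were taken.

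No normalization was added, and 16 was added to each value before log2 was taken. Of 45101 probe sets, 64 controls were left out and 27022 of 45037 passed a mean log2 of 6.49, the 40th percentile. The added 16 shrinks differences of dim probe sets. Per the platform annotation 34945 probe sets name 1 gene, 932 several and 9160 are not listed, and 34741 matched the RefSeq gene table of GRCm38.p6, used for gene order only. A gene stands for its brightest probe set. Differences were fitted with R 4.3.3 and limma 3.58.1, using eBayes with a variance trend after lmFit, class and arthritic label as terms, Benjamini-Hochberg adjusted over all probe sets, called at 0.05. The script was tested on simulated data. Permutation tests drew 100000 resamples and were two-sided. The number of arrays limits the precision. Named genes were Zfp949, Mrap2, every called neighbour, the 12 largest differences each way among called genes elsewhere, up to 4 members of each list, Il1rn, the sex-linked genes and the genes with high and low mice of their own. The members and lists were chosen with earlier results of these data known.

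Alternatives varied the pseudocount, filter, normalization, threshold, label term, control clusters, replicate block, variance trend and test, left out each mouse, and, chosen after seeing the data, added the actin ratio or took each cluster alone.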

Additional observations from a re-analysis of the deposited data

Results flagged for a closer look

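In the 6 low arthritic mice, arthritic 17 stood far above the others for the 3 unnamed probe sets with large differences: 9.79, 12.27 and 12.38 for the first, the second and the third of them on the log2 scale. The gap to the next mouse took up 0.711, 0.657 and 0.806 of the group's range, above Dixon's 95% critical value. Of 18 groups tested in this way 3 stood out, and chance marks about 1 in 20. The 3 probe sets moved together, so they are not separate observations.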

How the results depend on the processing

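The difference in Mrap2 kept its sign in every alternative run that tested it. It ran from 1.91 with a pseudocount of 64 to 4.19 with a pseudocount of 1. Mrap2 was called in 16 of 17 other settings and in all 36 fits that left out 1 mouse. With the filter at the 60th percentile its probe set was left out and not tested. Mrap2 was proposed with earlier results known and passed the filter only through the high class. All these fits reuse the same arrays, so its calls in them are no independent evidence. The count of 99 probe sets was 46 with no filter on low values, 51 without the label term, 50 without the variance trend, 52 with the actin ratio, 248 with the control clusters as a block, 1 and 5 in arthritic and non-arthritic mice alone, 4, 2 and 0 in the 3 control clusters alone, and 1 by the rank-sum test. The count of 4 called neighbours was 2 with no filter, with a filter at the 60th percentile, without the label term and without the trend, 1 in arthritic or in non-arthritic mice alone, 1, 1 and 0 in the clusters alone, and 1 by the rank-sum test. Smaller groups of arrays leave fewer samples to test. Leaving out 1 mouse gave 25 to 252 probe sets and 1 to 4 neighbours: 1 without non-arthritic 6 or 15, and 2 without any one of arthritic 2, 4, 6, 7, 10, 11, 12, 16, 17 and 18 and non-arthritic 2, 3, 5, 7, 9, 10, 16 and 18. Of the probe set counts, 22 of 36 moved by over 1.5 times, 20 of them downward. Of the 99 probe sets 21 were called in all 36 fits, 9 of them on chromosome 9. In the third control cluster alone, where 1 low array was left, 16 of the 99 probe sets turned their sign, among them Crim1 at -0.030, 1 of Rbm5 at -0.035 and Smarca4 at -0.29, against 1 in the first cluster alone and 0 in the second. With the replicate number as a block the counts were 5 and 1. Same-numbered arthritic and non-arthritic arrays correlated from -0.23 to 0.47 in their deviations, with a median of 0.15 and 11 of 18 over 0.1. Arrays of unlike number were not compared, so whether the numbers pair the mice was not tested. The counts of the label interaction stayed at 0 in each fit run. The causes of these shifts were not tested.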
